A study of Mus musculus with 6 samples.

Results

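Bnip3, Ankrd37, P4ha1, P4ha2, Egln1, Egln3, Adm, Car9, Car12 and Ndrg1 are genes that low oxygen induces in many cell types and that lie outside the glycolytic pathway. These 10 genes, of 34844 gene names on the array, were taken by name from the probe annotation in the files. They are covered by 14 probes of 55681, and each of the 14 also carries a RefSeq accession of the same gene. Expression was compared between the outer and the intermediate interzone of mouse embryos at 15.5 days of gestation, with 3 arrays of each layer and 1 embryo per replicate. The labels do not say whether same-numbered samples of the layers came from the same embryo. The interzone is the cell layer at a future joint, with outer parts next to the cartilage models and an intermediate part between these. The labels give no strain, genotype or treatment for either group, and the sources used here do not say how the layers were isolated. Total RNA was amplified, labelled with Cy3 and hybridised to 1-colour Agilent arrays, so each value is a brightness and the 3 arrays per layer limit the precision.

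Cells sense oxygen through hypoxia-inducible factors (HIF), dimers of an oxygen-labile alpha subunit, such as the products of Hif1a and Epas1, and a stable partner encoded by Arnt. With oxygen present, the prolyl hydroxylases encoded by the Egln genes mark the alpha subunit, and the Vhl protein then directs it to degradation. Without oxygen the factor persists and binds a short core motif in its target genes, among them genes of energy supply, pH control, mitochondrial turnover and collagen modification. Growing cartilage contains no blood vessels, and HIF function is known to be needed in chondrocytes of the growth plate.

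The stretches before the start sites of Bnip3, Ankrd37, P4ha2 and Car9 show where this core motif lies in them. Car9 was not called different between the layers, and the others were, on at least 1 probe. The 250 bases before each annotated start were taken from RefSeq on build GRCm38.p6, which matched 9 of the 10 genes. Both strands were searched for the 2 forms of the core, ACGTG and GCGTG, counting overlapping matches. Capitals mark the matches, and a match on the other strand reads CACGT or CACGC. Each sequence runs 5′ to 3′ on the strand of the gene and ends at the base before the start site.
Bnip3 (chr7:138909507-138909756, minus strand): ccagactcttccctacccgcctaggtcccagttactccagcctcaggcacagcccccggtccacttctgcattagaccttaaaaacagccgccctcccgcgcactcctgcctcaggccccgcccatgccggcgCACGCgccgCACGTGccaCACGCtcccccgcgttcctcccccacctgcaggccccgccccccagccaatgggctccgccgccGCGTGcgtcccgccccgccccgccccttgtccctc
Ankrd37 (chr8:45999851-46000100, minus strand): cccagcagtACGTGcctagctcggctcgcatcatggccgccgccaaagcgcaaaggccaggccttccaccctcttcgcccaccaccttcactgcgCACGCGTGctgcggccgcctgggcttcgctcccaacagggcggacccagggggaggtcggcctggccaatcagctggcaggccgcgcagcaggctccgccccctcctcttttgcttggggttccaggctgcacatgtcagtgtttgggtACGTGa
P4ha2 (chr11:54100674-54100923, plus strand): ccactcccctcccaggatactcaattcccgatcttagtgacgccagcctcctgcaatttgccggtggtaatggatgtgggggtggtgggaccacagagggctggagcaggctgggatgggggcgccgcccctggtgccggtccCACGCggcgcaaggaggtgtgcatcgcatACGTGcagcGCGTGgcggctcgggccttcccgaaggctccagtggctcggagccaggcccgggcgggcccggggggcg
Car9 (chr4:43506776-43507025, plus strand): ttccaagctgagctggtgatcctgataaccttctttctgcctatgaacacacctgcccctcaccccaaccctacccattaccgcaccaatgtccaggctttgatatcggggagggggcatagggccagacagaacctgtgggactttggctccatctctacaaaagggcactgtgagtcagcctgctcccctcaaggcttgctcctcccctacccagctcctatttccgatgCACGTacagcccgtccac

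Bnip3 held 5 matches, of which an ACGTG match on each strand shared letters between positions -108 and -103, counted back from the start at -1. Ankrd37 held 4, including ACGTG from position -6 and an overlapping pair of GCGTG matches on opposite strands. P4ha2 held 3, with ACGTG from position -78. Car9 held 1, on the other strand, from position -18 to -14. Among the other matched genes P4ha1 held 3 matches, Egln1 2, Adm 2 (both GCGTG), Egln3 1 and Car12 0. ACGTG was present in 7 of the 9 windows and either form in 8 of 9. Over the 32850 windows of this length in the table, 16.57% held ACGTG and 38.6% held either form. The members' windows were rich in CpG, with a median of 19 CpG against 6 in all windows, and both forms of the core contain a CpG. Among the windows with 5 to 51 CpG, the span of the members, 22.9% held ACGTG and 56.82% held either form. This span takes in 18240 windows and was not matched to the members' median of 19 CpG. The members were picked as genes that low oxygen induces, so these shares are a description and not a test. ACGTG was found alike in members that were called between the layers and in P4ha1 and Egln1, which were not.

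**Figure D1:**
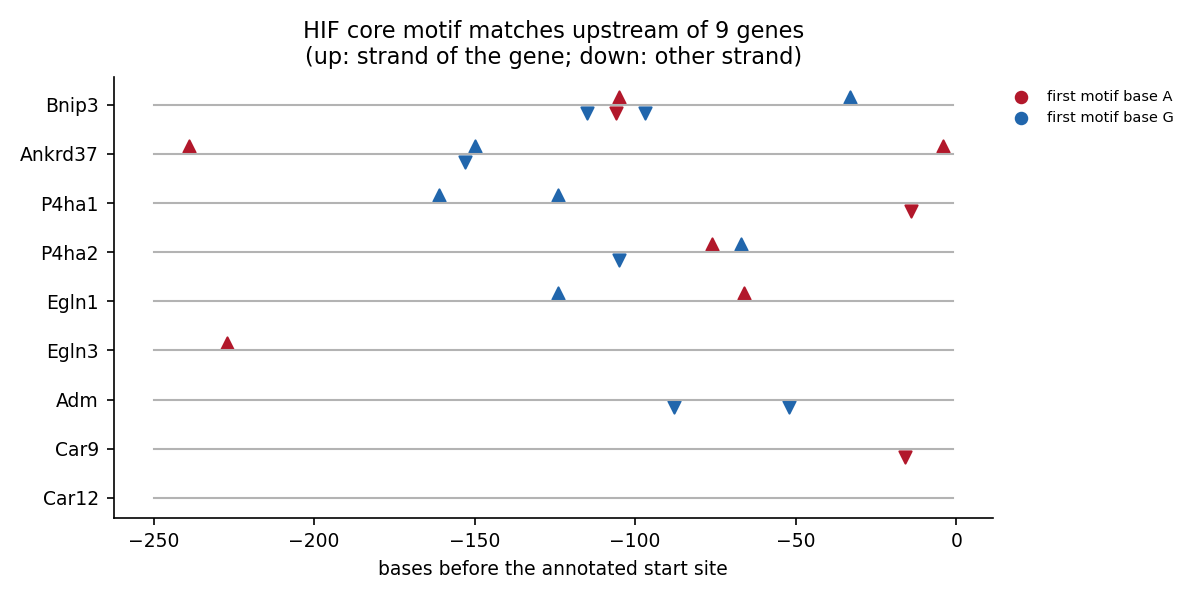
Positions of the motif matches (horizontal axis, bases before the annotated start site) for the 9 genes with a RefSeq window (rows), with up triangles on the strand of the gene, down triangles on the other strand, red for the form starting with A and blue for the form starting with G. Bnip3 has the most, with 5, and Car12 has 0.

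Bnip3, Ankrd37 and P4ha2 were higher in the outer interzone, by 2.14-fold to 3.02-fold, and no member was called lower there. Each level is the log2 of the signal relative to the 75th percentile of its array, and each difference is outer minus intermediate on that scale. All 14 probes were well above background on the 3 arrays of at least 1 layer and were tested, 12 of them on all 6 arrays. limma called 4 of the 14 at adjusted p 0.05, all higher in the outer layer, and 10 were not called. Of all 23884 probes tested, 3.48% were called. The outer layer was the higher one for 1.33% and the intermediate layer for 2.16%. The samples of the layers did not overlap for 8 of the 14 probes, each time with the outer samples above, against 26.3% of all probes (14.8% with the outer and 11.4% with the intermediate samples above). The median difference of the 14 probes was 0.94, and that of all probes tested was 0.09. Bnip3, P4ha1 and Egln3 have more than 1 probe, so the 14 probes do not count as separate genes. On the brightest probe of each gene, 3 of the 10 genes were called and the median difference was 0.60.

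The calls of the members changed with the scaling and with single arrays. Dividing each array by its median instead, which is what the authors' deposited values hold, shifted every difference by -0.39. The median of all probes became -0.31. That of the 14 member probes became 0.55, with 9 of them above 0 against 12 before. limma called 0 of the 14 probes. At unadjusted p under 0.05 there were 7 of the 14 and 5262 of all 23884 probes. Over all probes, calls for the outer layer went from 317 to 183, and calls for the intermediate layer went from 515 to 1177. The 4 called probes stayed higher in the outer layer under this scaling, at 0.71 to 1.20. Leaving out intermediate replicate 1, intermediate replicate 3 or outer replicate 3 ended all 4 calls. In these runs the calls over all probes also fell, from 832 to 75, 74 and 109, so the loss was not particular to the members. Outer replicate 1 was on the slide of the 3 intermediate arrays, and the other outer arrays shared a second slide, so values with the slide as a block, or within the first slide, set 1 outer array against 3 intermediate arrays. Their p-values assume that this array varies like the others and say little about whether a call holds. Without outer replicate 1, the dimmest array, P4ha2 was the only member called (597 calls over all probes). Without outer replicate 2, and also with quantile normalization, Ankrd37 and P4ha2 were called but no Bnip3 probe was (1237 and 493 calls over all probes). Without intermediate replicate 2 the 3 Bnip3 probes and Ankrd37 were called but not P4ha2 (420 calls over all probes). Blocking on the replicate number gave 5 called member probes and 1724 called probes in all, against 832 without the block.

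Markers of neighbouring cell types moved with the layers, and their part in the differences of the members was not tested. Of 13 cartilage markers, 12 were on the array, and all 12 were called higher in outer samples. Their summed linear signal over the 75th percentile was 591 to 881 in outer and 63.1 to 130 in intermediate samples. Of 11 leukocyte markers, 10 were called lower in the outer layer (sums of 8.55 to 24.5 against 79.1 to 141), as were 8 of 10 endothelial markers (54.7 to 74.7 against 98.7 to 117). All markers of these 3 lists were well above background on some array. None of the tested muscle, erythroid and epidermal markers was called by limma, with sums that overlapped between the layers, and 1 of 2 tested Schwann cell markers was called higher in the outer layer. Of 5 interzone markers, 1 was called. This was Erg, named after its value was seen, higher in outer samples on probe A_55_P2015862 (difference 0.95, limma adjusted p = 0.0455), and the summed signal of the list overlapped (32.6 to 125 against 42.3 to 116). The interzone marker Gdf5 was 5.69 ± 1.07 (SD, n = 3) in outer and 5.69 ± 0.89 in intermediate samples. In tissue samples, fewer cells of a type and less RNA per cell cannot be told apart.

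**Figure D2:**
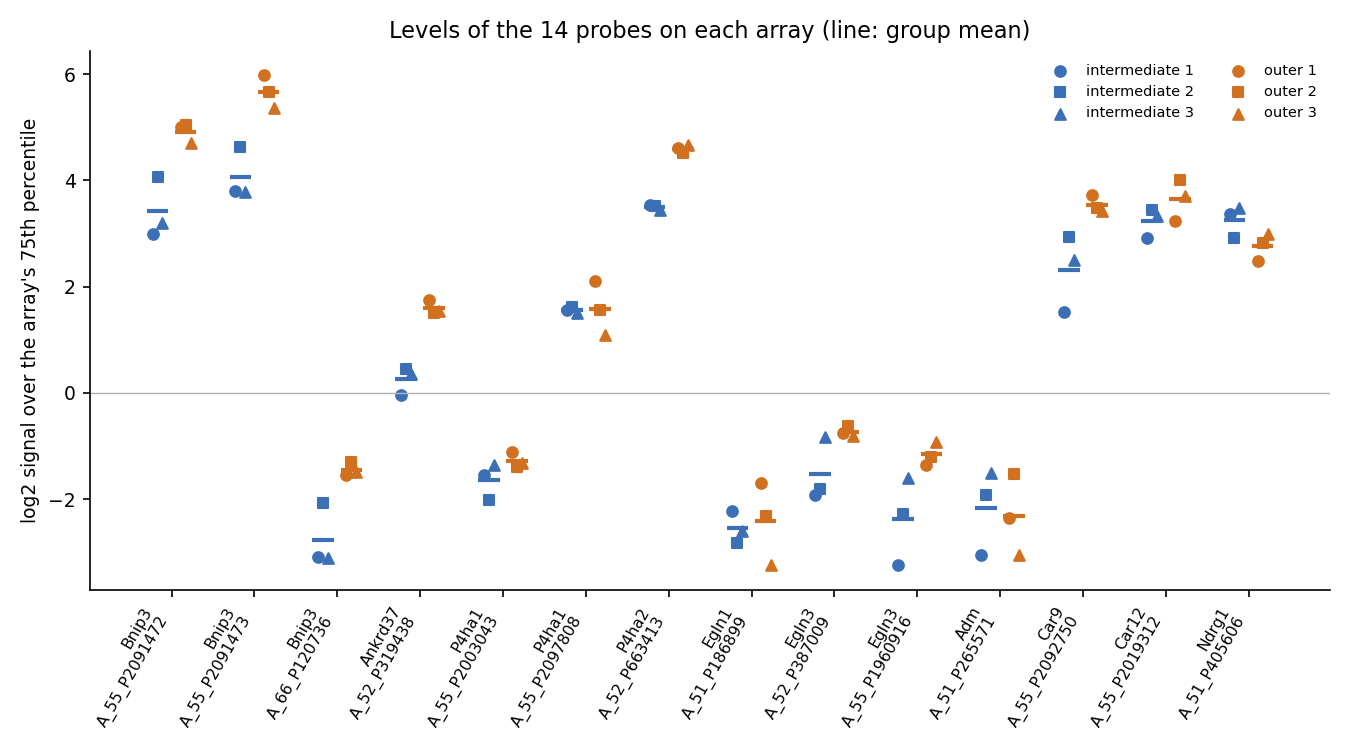
Level of each of the 14 probes on each of the 6 arrays (vertical axis, log2 of signal relative to the array's 75th percentile), with blue for intermediate and orange for outer samples, 1 marker shape per replicate number and a line at each group mean. For Bnip3, Ankrd37, P4ha2, Egln3 and Car9 all outer samples lie above all intermediate samples.

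Bnip3 encodes a mitochondrial outer membrane protein that recruits the autophagy machinery to mitochondria. Its probe A_55_P2091473 (chr7:146082760-146082819, mm9) read 3.80, 4.62 and 3.79 on the intermediate arrays and 5.98, 5.66 and 5.35 on the outer arrays. All outer samples were above the highest intermediate sample, replicate 2. The outer mean was 5.66 ± 0.31 (SD, n = 3) and the intermediate mean 4.07 ± 0.48, which differ by 1.59 (SE 0.29, 3.02-fold, limma adjusted p = 0.0355). Probe A_55_P2091472 (chr7:146082640-146082699) read 2.99, 4.06 and 3.20 against 4.99, 5.04 and 4.71, a difference of 1.50 (SE 0.30, 2.82-fold, limma adjusted p = 0.046). The third probe, A_66_P120736 (chr7:146082536-146082595), was dim, at -3.09, -2.08 and -3.12 against -1.56, -1.30 and -1.49. It differed by 1.31 without passing (limma adjusted p = 0.0672) and passed with the replicate number as a block (adjusted p = 0.0411). The 3 probes gave the same order of layers, and on each of them intermediate replicate 2 was the highest intermediate sample. With the slide as a block, which rests on outer replicate 1, the differences were 1.58 on A_55_P2091472 (limma adjusted p = 0.079) and 1.91 on A_55_P2091473 (adjusted p = 0.0395).

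Ankrd37 encodes an ankyrin repeat protein and is used as a marker of the HIF response. Its probe A_52_P319438 (chr8:47082404-47082463, mm9) read -0.05, 0.45 and 0.36 on the intermediate and 1.75, 1.49 and 1.54 on the outer arrays. The gap between the layers was wider than the spread within either. The means were 1.60 ± 0.14 (SD, n = 3) and 0.25 ± 0.27, a difference of 1.34 (SE 0.20, 2.53-fold, limma adjusted p = 0.0207). With the slide as a block, from outer replicate 1 alone, it was 1.50 (limma adjusted p = 0.0327).

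P4ha1 and P4ha2 encode alternative catalytic subunits of the enzyme that hydroxylates proline in collagen, a step the collagen triple helix needs for its stability. P4ha2 (probe A_52_P663413, chr11:53945032-53945091, mm9) read 3.54, 3.51 and 3.44 on the intermediate and 4.61, 4.51 and 4.66 on the outer arrays. This was the tightest of the 14 probes within both layers, with means of 4.59 ± 0.08 (SD, n = 3) and 3.49 ± 0.05. Outer samples were 2.14-fold higher (difference 1.10, SE 0.16, limma adjusted p = 0.0185). With the slide as a block, or on the slide that held both layers, the difference was 1.11 (limma adjusted p = 0.043 and 0.0576), again from outer replicate 1 alone.

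P4ha1 was not called on either probe. Probe A_55_P2097808 (chr10:58835625-58835684, mm9) read 1.56, 1.62 and 1.50 on the intermediate and 2.10, 1.56 and 1.09 on the outer arrays, so the outer samples lay on both sides of the intermediate ones. Its difference was 0.02, with a 95% interval from -0.61 to 0.66 (limma adjusted p = 0.971). Probe A_55_P2003043 (chr10:58835012-58835071) differed by 0.36, from -0.16 to 0.88 (limma adjusted p = 0.401). The difference of P4ha2 exceeded that of P4ha1 by 1.07 (SE 0.31) and 0.74 (SE 0.22) on these probes, a quantity that no scaling of whole arrays changes. The 6 arrays separated by layer in both cases, at the smallest p that 3 against 3 samples allow (exact two-sided permutation p = 0.1, Benjamini-Hochberg p = 0.143 over 10 probe pairs of related genes chosen after the values were seen).

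Egln3 and Egln1 encode oxygen-dependent prolyl hydroxylases that mark the HIF alpha subunits, and both are themselves induced by HIF. Egln3 had its outer samples above its intermediate ones on both probes without passing the test. Probe A_55_P1960916 (chr12:55281252-55281311, mm9) read -3.25, -2.29 and -1.61 on the intermediate and -1.35, -1.21 and -0.92 on the outer arrays (difference 1.22, SE 0.40, limma adjusted p = 0.154). Probe A_52_P387009 (chr12:55280953-55281012) read -1.93, -1.80 and -0.83 against -0.75, -0.62 and -0.82 (difference 0.79, SE 0.31, limma adjusted p = 0.21). The intermediate samples spread widely, and on the second probe intermediate replicate 3 lay just under the lowest outer sample. Egln1 (probe A_51_P186899, chr8:127432487-127432499 in the files) was near background, well above it on 2 of 3 outer arrays. It read -2.23, -2.83 and -2.60 against -1.69, -2.32 and -3.24, with overlapping layers and a difference of 0.14 (95% interval -0.79 to 1.06, limma adjusted p = 0.878). The differences of Egln3 and Egln1 were not separated (exact two-sided permutation p = 0.4 and 0.5 for the 2 Egln3 probes, Benjamini-Hochberg p = 0.444 and 0.5).

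Car9 and Car12 encode carbonic anhydrases of the cell surface that help cells export acid. Car9 (probe A_55_P2092750, chr4:43526518-43526577, mm9) read 1.52, 2.93 and 2.50 on the intermediate and 3.72, 3.48 and 3.42 on the outer arrays. The layers did not overlap, but the intermediate samples spread by an SD of 0.73 and the probe was not called (difference 1.22, SE 0.36, limma adjusted p = 0.121). Car12 (probe A_55_P2019312, chr9:66614542-66614601) read 2.91, 3.45 and 3.32 against 3.23, 4.0 and 3.70. These layers overlapped, although the outer sample was the higher one in each same-numbered pair. The difference was 0.42 (95% interval -0.19 to 1.03, limma adjusted p = 0.409), and it did not pass with the replicate block either (adjusted p = 0.111). The gap between the 2 differences, 0.80 (SE 0.40), did not separate the arrays by layer (exact two-sided permutation p = 0.2, Benjamini-Hochberg p = 0.25).

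Adm, which encodes the vasodilator peptide adrenomedullin, and Ndrg1, a cytoplasmic stress-response gene of the N-myc downstream-regulated family, were the members with a difference below 0. Adm (probe A_51_P265571, chr7:117773088-117773147, mm9) was near background and well above it on 2 of 3 outer arrays. It read -3.06, -1.93 and -1.51 against -2.36, -1.53 and -3.05 and differed by -0.15 (95% interval -1.33 to 1.03, limma adjusted p = 0.898). Ndrg1 (probe A_51_P405606, chr15:66761057-66761116) read 3.36, 2.92 and 3.48 on the intermediate and 2.49, 2.82 and 2.99 on the outer arrays. The layers overlapped only because outer replicate 3 lay above intermediate replicate 2, and the outer sample was the lower one in each same-numbered pair. The difference was -0.49 (SE 0.23, limma adjusted p = 0.284, replicate block adjusted p = 0.16). Its 95% interval, -1.03 to 0.05, stayed below the positive differences measured for Bnip3, Ankrd37 and P4ha2 on the same scale. With arrays scaled to the median the Ndrg1 difference was -0.88 (limma adjusted p = 0.131).

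**Figure D3:**
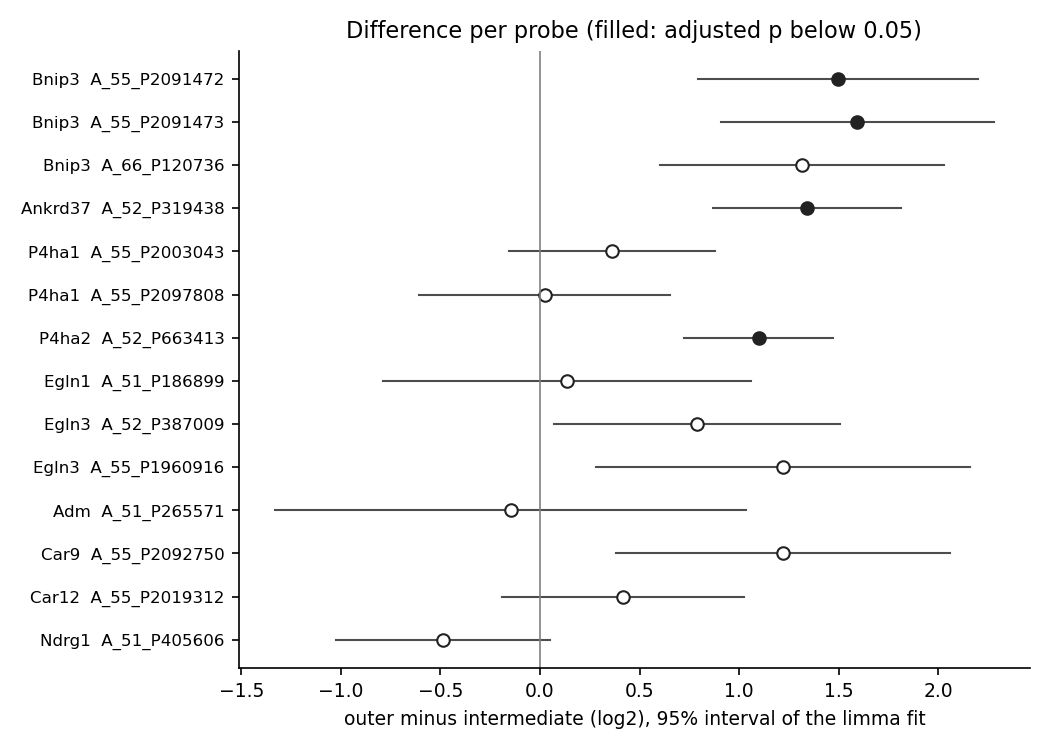
Difference of each probe (horizontal axis, outer minus intermediate in log2) with its 95% interval from the limma fit, 1 row per probe, filled where the adjusted p was below 0.05. The 4 filled points lie between 1.10 and 1.59, and Ndrg1 is lowest at -0.49.

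Genes related to the members were measured on the same arrays. Ndrg2, a paralogue of Ndrg1, was 4.11-fold higher in outer samples (difference 2.04, limma adjusted p = 0.00787), at 3.51 ± 0.13 (SD, n = 3) against 1.47 ± 0.20. Its difference exceeded that of Ndrg1 by 2.53 (SE 0.34), and the 6 arrays separated by layer (exact two-sided permutation p = 0.1, Benjamini-Hochberg p = 0.143). The other Ndrg genes, Ndrg3 and Ndrg4, named after their values were seen, differed by 0.06 and -0.06 and were not called. Bnip3l, a paralogue of Bnip3 named after its value was seen, differed by 0.29 (limma adjusted p = 0.503), which was 1.02 to 1.30 less than Bnip3 across the 3 Bnip3 probes, and the arrays separated by layer each time (exact two-sided permutation p = 0.1). Of 14 other carbonic anhydrase genes, 9 were tested on their brightest probe, limma called 0 (3 at unadjusted p under 0.05), and 5 were not well above background on all arrays of either layer and were not tested. Of 10 other collagen hydroxylation genes, limma called 0 (2 at unadjusted p under 0.05). P4hb, named after its value was seen, encodes the partner subunit of P4ha1 and P4ha2 and differed by -0.06 (limma adjusted p = 0.876). P4ha3, named after its value was seen, differed by -1.51 on its brightest probe with layers that did not overlap (limma adjusted p = 0.102), and by -0.35 on probe A_55_P2003033 with overlapping layers (adjusted p = 0.7). Of 8 genes of adrenomedullin signalling, 5 were tested and limma called 0 (3 at unadjusted p under 0.05). These unadjusted counts stand beside 4860 of all 23884 probes tested.

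Of 16 listed HIF factors and regulators, limma called 0 on the brightest probe, and their median difference was 0.00. At unadjusted p under 0.05 the count on these brightest probes was also 0, against 4860 of all 23884 probes. Dimmer probes of Epas1 (below) and of Cul2, named after its values were seen, were under it. Cul2 probe A_55_P2121076 differed by 0.68 (limma unadjusted p = 0.0276, adjusted p = 0.187), and its other probes by -0.32 to 0.01. Hif1a stood at 2.62 ± 0.15 (SD, n = 3) in outer and 2.35 ± 0.08 in intermediate samples (difference 0.27, limma adjusted p = 0.419; -0.12 with arrays scaled to the median). Arnt, Vhl and Egln2 differed by -0.04, -0.03 and -0.02 (limma adjusted p = 0.959, 0.971 and 0.969). Hif1an, whose product hydroxylates an asparagine of HIF alpha, differed by -0.26 (limma adjusted p = 0.51). The probes of Epas1 differed in sign, but only those below 0 separated the layers. The brightest, A_55_P2077448 (chr17:87230678-87230737, mm9), differed by 0.57 (limma adjusted p = 0.524) with overlapping layers. Probe A_51_P250058 (chr17:87232615-87232674) was 3.70-fold lower in outer samples (difference -1.89, limma adjusted p = 0.0255), and probe A_55_P2053988 (chr17:87230587-87230646) differed by -1.23 (limma adjusted p = 0.0623). The samples of the layers were apart on both of these probes, so the direction for Epas1 depends on the probe.

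Few other hypoxia-induced genes were called. Of 30 listed, 27 were tested on their brightest probe, 1 was called higher in the outer layer, 1 was called higher in the intermediate layer and 25 were not called. Over all probes 1.33% and 2.16% were called in these directions, so 1 call each way does not set the list apart. The iron uptake receptor gene Tfrc was 2.48-fold higher in outer samples (difference 1.31, limma adjusted p = 0.0328), a call that ended in 10 of 16 alternatives, with adjusted p from 0.0761 to 0.132 when intermediate replicate 1, 2 or 3 or outer replicate 1 or 3 was left out. Lox, which encodes an enzyme that crosslinks collagen, was 2.75-fold higher in intermediate samples (difference -1.46, limma adjusted p = 0.0147), and its other probe was called too (-1.42, adjusted p = 0.0472). The first call ended without intermediate replicate 1, intermediate replicate 3 or outer replicate 3 (adjusted p = 0.0817, 0.0632 and 0.0676). The differences of Lox and P4ha2, both genes of collagen handling, were -2.56 apart (SE 0.15). Each of these genes separated the layers, in opposite directions, so a permutation p of this gap was fixed in advance and adds nothing. Vegfa, the vascular growth factor gene, differed by 0.89 (limma adjusted p = 0.0547) and passed in 4 of 16 alternatives, including the replicate block (adjusted p = 0.0483). Hmox1, the haem-degrading enzyme gene, named after its values were seen, differed by -2.37 on its brightest probe (limma adjusted p = 0.0591), while a dimmer probe was called lower in the outer layer (-1.36, limma adjusted p = 0.0335). The median difference over the 27 genes was 0.25 with 19 above 0, and it turned to -0.14 with 11 above 0 when arrays were scaled to the median.

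Glucose uptake and glycolysis genes, among the best-known HIF targets, all had differences above 0, from 0.23 to 2.68 (16 of 21 above 0 with arrays scaled to the median). All 21 listed genes were tested, and the outer samples lay above all intermediate samples for 15 (14.8% of all probes tested). limma called 0 of the 21, with 14 at unadjusted p under 0.05, against 4860 of all 23884 probes. Slc2a1, which encodes a glucose transporter, differed by 0.96 (limma adjusted p = 0.131), the glycolytic enzyme gene Pgk1 by 0.78 (adjusted p = 0.125) and the lactate dehydrogenase gene Ldha by 0.58 (adjusted p = 0.158). Slc2a1 passed with the replicate block (limma adjusted p = 0.0388). The median of the list was 0.61, and that of the 10 member genes on their brightest probes was 0.60.

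**Figure D4:**
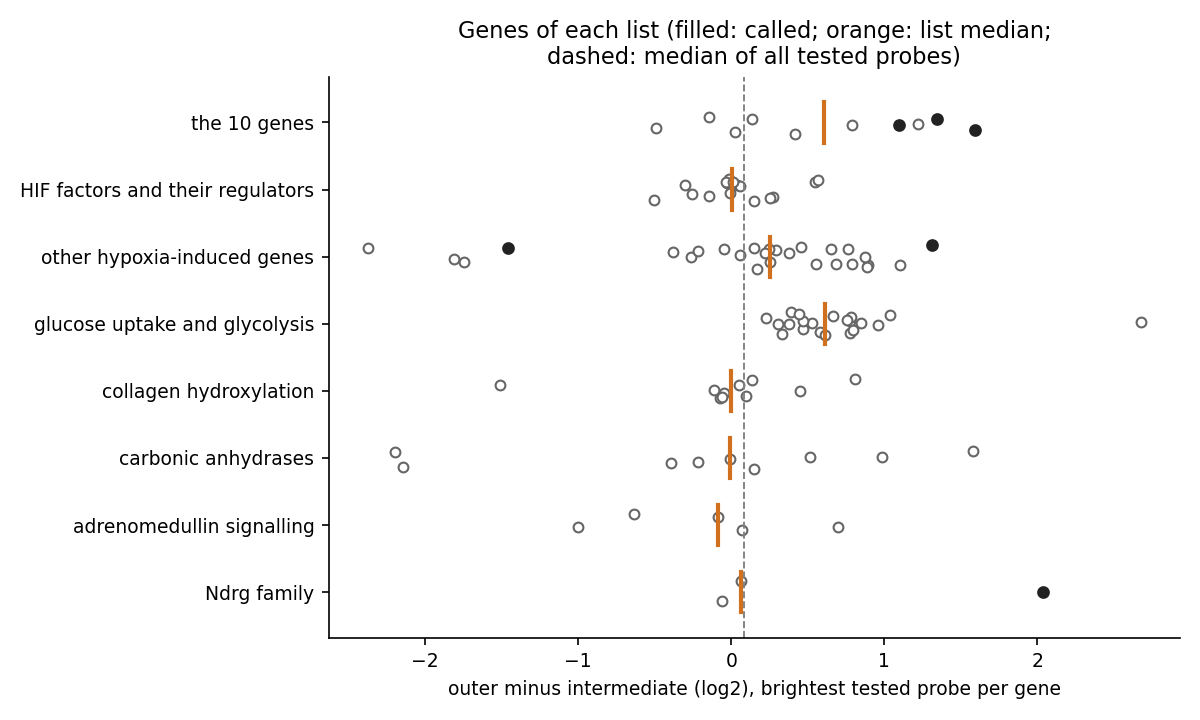
Difference of each tested gene on its brightest probe (horizontal axis, outer minus intermediate in log2) by gene list (rows), filled where called, with an orange bar at the list median and a dashed line at 0.09, the median of all tested probes. The 10 genes and the glycolysis list have medians of 0.60 and 0.61, and the HIF factors 0.00.

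Over the 6 arrays, the patterns most like those of the called members included cartilage genes for 1 Bnip3 probe. Among 13576 named genes, A_55_P2091472 of Bnip3 correlated best with Col9a2 (Pearson r = 0.9985), the limb homeobox gene Shox2 (r = 0.9971) and the cartilage gene Lect1 (r = 0.9971). For A_55_P2091473 the best were Vill, Psrc1 and Il1rapl2 (r = 0.9977, 0.9972 and 0.9966), so 2 probes of Bnip3 shared none of their nearest genes. Ankrd37 was closest to 2610528A11Rik (r = 0.9993), Casc5 (r = 0.9987) and Hoxa11as (r = 0.9984), and P4ha2 to Klf9 (r = 0.9992), 5430407P10Rik (r = 0.9981) and A330049M08Rik (r = 0.9976). These values describe the best of many genes over 6 arrays that share slides and layers.

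**Figure D5:**
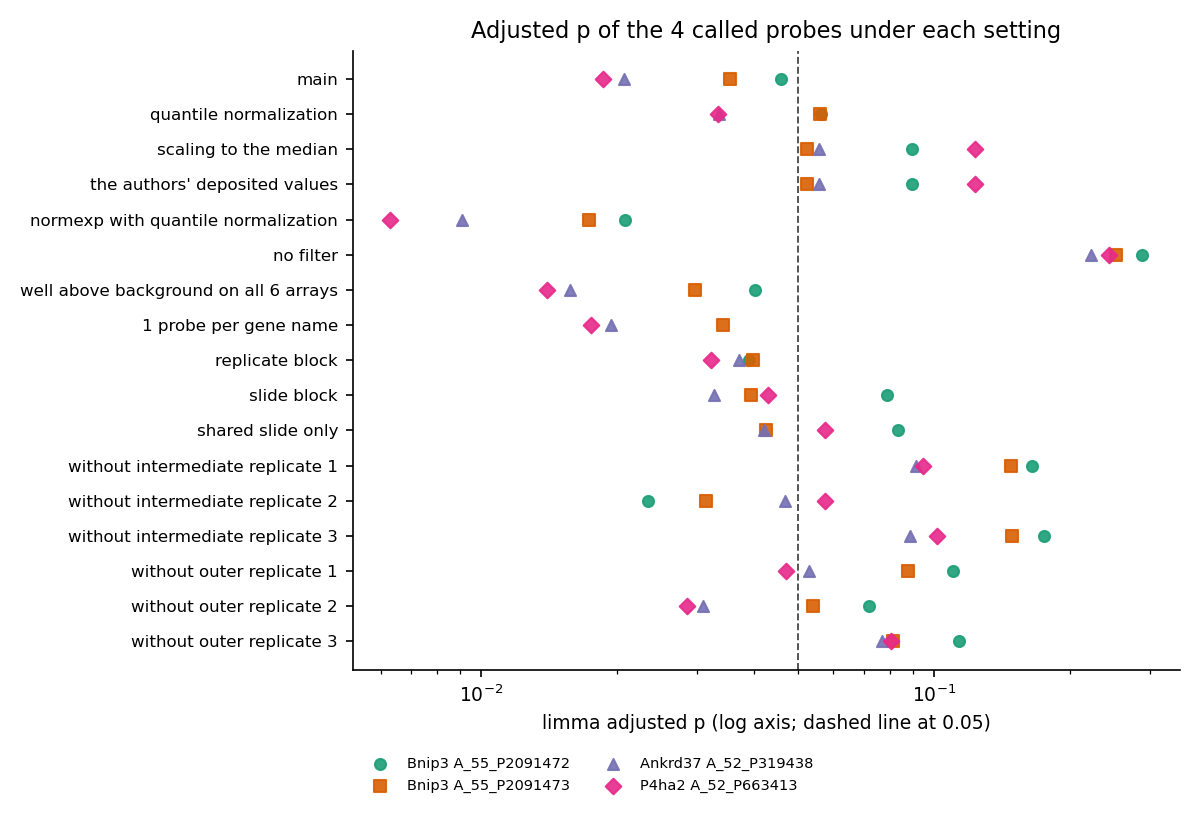
limma adjusted p of the 4 called probes (horizontal log axis, dashed line at 0.05) under the chosen setting and each alternative (rows), 1 colour and shape per probe. All 4 lie left of the line with the replicate block, and all lie right of it with arrays scaled to the median, without a filter and without intermediate replicate 1, intermediate replicate 3 or outer replicate 3.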

How the data were processed

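Per the file headers, scans were quantified by version 10.7.3.1 of Agilent's Feature Extraction. Partek 6.11.0321 is listed in the submitters' processing notes. The deposited processed signal intensity is background-subtracted and detrended within each array, per the file headers. The authors' deposited table holds the same intensity divided by 1 constant per array (column median 1, linear, not centred per gene; its direction of comparison is not stated). Of 59305 non-control spots, flagged outliers were left out, spots of 1 probe were averaged as log2, and 9 probes without a value were dropped. Each array's 75th percentile (47.4 on outer replicate 1, 144 to 344 on the others) was subtracted in log2. Probes well above background on all arrays of a layer were tested with limma 3.58.1 in R 4.3.3 (lmFit, eBayes, two-sided), Benjamini-Hochberg over all tested probes. No spot was saturated. The fit was tested on simulated data.

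The genes and lists were chosen with earlier results of these data known. Named genes were all members, up to 6 called genes per list by size, and fixed HIF factors and reference targets; genes outside this rule are marked in the text as named after their values were seen. Same-numbered samples deviated together (correlations of 0.537, 0.478 and 0.358 for replicates 1, 2 and 3), so the numbers may pair the samples. The labels give the numbers but not what they share. The reported fit has no block, and the permutation p-values also treat the samples as unpaired. Pairing enters only where the replicate block is named, as an alternative. Outer replicate 1 shared slide 1 with all 3 intermediate arrays, and the other outer arrays were on slide 2, so with slide as a block or within slide 1 the difference rests on outer replicate 1.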

Additional observations from a re-analysis of the deposited data

How the results depend on the processing

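Counts are given for all tested probes (832 as reported), the 14 probes of the 10 genes (4) and the pathway lists (6), in that order. They were 493, 2 and 3 with quantile normalization, and 1360, 0 and 10 both with scaling to the median and with the authors' deposited values. Normexp with quantile normalization gave 1086, 4 and 13, and testing only probes above background on all 6 arrays gave 527, 4 and 8. Without a filter limma called 0, 0 and 0 (5734, 7 and 39 at unadjusted p under 0.05). The replicate block gave 1724, 5 and 21, the slide block 1557, 3 and 10, and the shared slide alone 1775, 2 and 11, both slide settings resting on 1 outer array. Leaving out 1 sample gave 74 to 1237, 0 to 4 and 1 to 8. The called differences of Bnip3, Ankrd37 and P4ha2 stayed above 0 in every alternative run, the lowest being 1.11, 1.20, 0.95 and 0.71. Signs changed only among probes that were not called. With scaling to the median, and with the authors' values, P4ha1 became -0.030 (A_55_P2003043) and -0.37 (A_55_P2097808), Egln1 -0.26 and Hif1a -0.12. Egln1 was -0.020 with quantile normalization and -0.014 with normexp. Hif1an was 0.052 with the slide block and on the shared slide. Leaving out 1 sample gave -0.24 to 0.27 for P4ha1 (A_55_P2097808), -0.23 to 0.55 for Egln1, -0.60 to 0.22 for Adm, -0.081 to 0.060 for Egln2, -0.26 to 0.25 for Vhl and -0.23 to 0.23 for Arnt. Egln1 and Adm lay near background and were not well above it on outer replicate 1, where 35.6% of spots were. Without that array Egln1 was -0.23 and Adm -0.13. Adm was above 0 without intermediate replicate 3 (0.18) and without outer replicate 3 (0.22). The cause of these changes was not tested.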
